A study of Mus musculus with 2 samples.

Results

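Imprinted genes are expressed mainly from the copy inherited from 1 parent, and 10 such genes, chosen by symbol from the 55536 genes measured, are described here in mouse cortex. They are Gnas and its antisense partner Nespas, the neighbours Peg3 and Usp29, the growth factor gene Igf2 with H19, the receptor gene Igf2r with its antisense RNA Airn, the adaptor gene Grb10, and Nnat. The rule that picks them uses gene symbols and no measured value. Total RNA, 300 ng per library, came from the cortex of the left hemisphere in males of strain B6CASTF1/J, a first-generation cross of C57BL/6 and CAST, at 14 days of age. The 2 libraries, replicates 1 and 2, form 1 group that shares genotype, sex, age and tissue, with no treatment named. The labels give each library its own biosample but name 1 donor entry for both and mention 3 males, so the spread between them may be technical and tissue may have been pooled. With 1 group there is no comparison between conditions and no p-value.

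At imprinted loci, DNA methylation set in the egg or sperm marks a control region, and the unmethylated copy often starts a non-coding RNA, binds an insulator protein, or leaves a promoter open. Several of these genes act on growth, on feeding and maternal behaviour, or on signalling through cAMP and insulin-like growth factors. Imprinting in brain can differ from that in other tissues, as for Igf2, Igf2r and Grb10. The values below sum over both parental copies, and which allele made the RNA was not analysed here.

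The libraries held 28263266 and 30862848 expected counts over genes, and a gene at 0 may still have up to 3 counts, which is 0.106 and 0.0972 CPM (counts scaled to library size). Over 17786 genes the chi-square statistic between the libraries was 11.97 per degree of freedom, so they are not copies of 1 library. Neuronal markers fitted the labelled cortex, with 8 of 8 neuron and 6 of 6 cortical neuron markers detected and 0 of 3 cerebellar ones. The libraries differed in regional markers. The summed level of 9 striatal projection neuron markers was 597 TPM (a transcript abundance scaled by length and library size) in replicate 1 and 167 in replicate 2, lower for 9 of 9, whereas the 6 cortical neuron markers summed to 1638 and 1950, higher for 6 of 6. In bulk tissue, fewer cells of a type and less RNA per cell cannot be told apart.

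Of the 10 genes, 9 reached a TPM of 1, the detection threshold, in both libraries. Over all genes 27.1% did so. Gnas was at 890 and 828 TPM in replicates 1 and 2 (859 ± 44.1, SD, n = 2), higher than 99.9% of all genes. Nnat, at 253 and 129 TPM (191 ± 88.1, SD, n = 2), came after it. Igf2, at 92.1 and 99.2 TPM, and Peg3, at 98.8 and 84.4 TPM, did not separate, since Peg3 was above Igf2 in replicate 1 and below it in replicate 2. Grb10, at 27.0 and 19.7 TPM, overlapped with Usp29, at 21.6 and 18.2 TPM. Igf2r followed at 12.2 and 11.8 TPM and Airn at 3.25 and 3.09 TPM. Nespas, at 1.20 and 1.00 TPM, and H19, at 0.65 and 1.04 TPM, overlapped at the foot of the order, and H19 was the member that missed TPM 1 in 1 library. A second deposited transcript table, summed per gene, gave the same order of means, from Gnas at 1438 ± 114 to H19 at 1.57 ± 1.20 TPM. Its TPM values run higher for genes in general, with a median ratio of 1.56 and 1.54 over detected protein-coding genes.

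**Figure D1:**
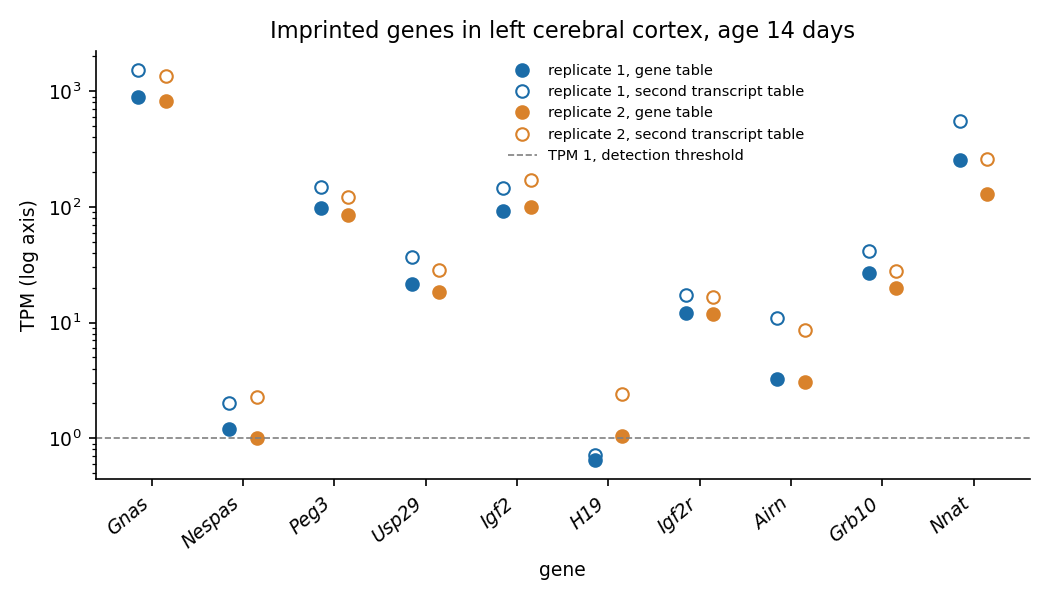
TPM of each of the 10 genes on a log axis, in replicate 1 (blue) and replicate 2 (orange), from the gene table (filled) and the second transcript table summed per gene (open); the dashed line is TPM 1. Gnas stands at 890 and 828 TPM in the gene table and H19 at 0.65 and 1.04, and Nnat at 253 and 129; in the second table the libraries lie farthest apart for H19, at 0.721 and 2.41.

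Gnas (ENSMUSG00000027523.19, mm10 chromosome 2, 174284320 to 174346744, plus strand) encodes Gsα, the G protein subunit that couples receptors to adenylyl cyclase. Its promoters differ in imprinting: the most upstream, for the secretory protein Nesp55, is known to act on the maternal copy, those for the extra-large form XLαs and for the untranslated exon 1A act on the paternal copy, and that for Gsα acts on both copies in most tissues. Its 24 annotated transcripts were grouped by 5′ end, with ends within 500 bases joined, into 7 promoter groups. The groups rest on annotated ends, not on measured starts of transcription.

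Nearly all Gnas RNA was assigned to the Gsα group. It held 91.7% of the gene's TPM in replicate 1 and 94.6% in replicate 2 (93.2 ± 2.04%, SD, n = 2), or 816 and 783 TPM. The exon 1A group held 7.17% and 4.10%, or 63.8 and 33.9 TPM. The Nesp55 group was at 1.52 and 0.54 TPM, which is 0.171% and 0.0652% of the gene. The XLαs group, with 7 transcripts, was at 0.31 and 0.04 TPM, resting on 20.6 and 3 estimated counts. The count in replicate 2 is no higher than the 3 counts that a 0 allows.

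The second transcript table moved part of this RNA to exon 1A, with 24.1% and 21.2% there and 71.7% and 77.9% in the Gsα group. The exon 1A group includes Gnas-202, annotated with the same coding length of 1182 bases as the Gsα transcript Gnas-208, so not all of this group is untranslated RNA. The second table also put 3.60% and 0.428% in group 2, mostly in Gnas-215, at 54.7 and 5.81 TPM, a transcript that the first table listed at 0. The Gsα group was highest and the XLαs group lowest of the 5 upstream groups in both libraries and both tables.

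**Figure D2:**
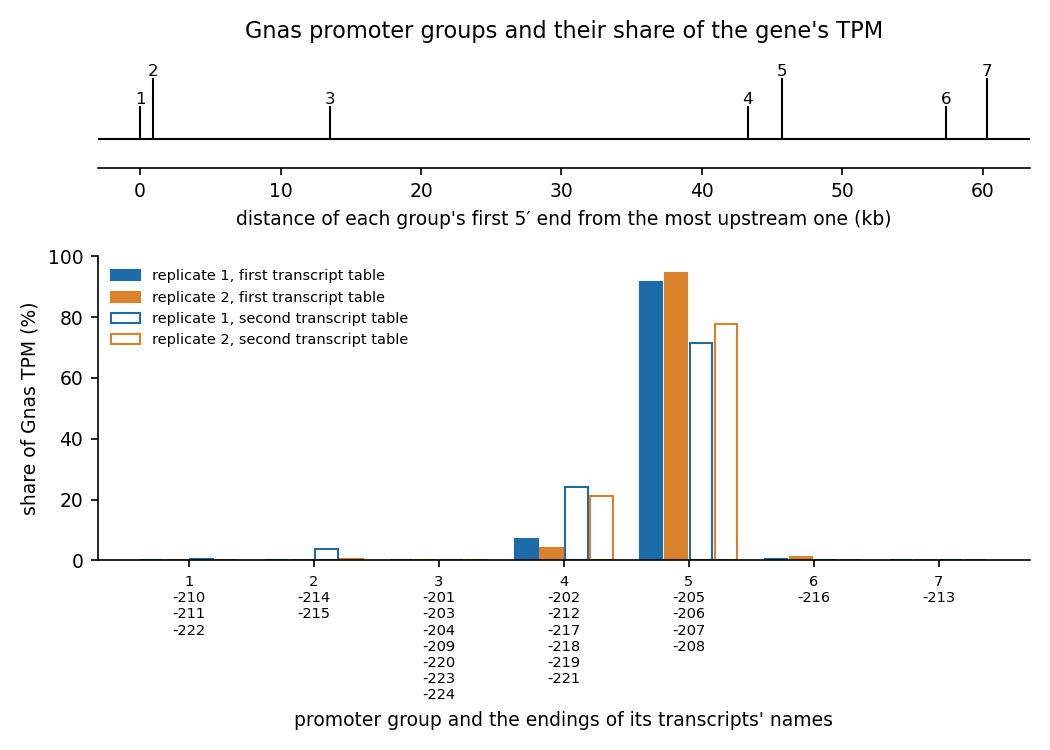
Upper panel: distance of the 7 Gnas promoter groups from the most upstream 5′ end, in kb. Lower panel: share of Gnas TPM (%) in each group, by library (blue, replicate 1; orange, replicate 2) and transcript table (filled, first; open, second). Groups 1, 3, 4 and 5 are those of Nesp55, XLαs, exon 1A and Gsα. Group 5 holds 91.7% and 94.6% in the first table and 71.7% and 77.9% in the second, with most of the rest in group 4.

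The bases before 3 of these starts show how the promoters differ in CpG, the dinucleotide that imprinting marks methylate. Each line gives the 120 bases before the start in RefSeq's table (GRCm38.p6, plus strand, 5′ to 3′), with CG in capitals.
Nesp55, chr2:174284200-174284319: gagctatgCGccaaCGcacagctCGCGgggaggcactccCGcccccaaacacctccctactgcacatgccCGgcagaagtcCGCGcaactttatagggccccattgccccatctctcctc
exon 1A, chr2:174327648-174327767: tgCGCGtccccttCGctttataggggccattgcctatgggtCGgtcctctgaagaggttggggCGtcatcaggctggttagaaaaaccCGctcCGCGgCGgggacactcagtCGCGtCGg
Gsα, chr2:174329886-174330005: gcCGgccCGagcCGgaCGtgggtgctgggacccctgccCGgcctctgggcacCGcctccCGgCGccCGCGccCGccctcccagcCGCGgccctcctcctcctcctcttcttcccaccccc
They hold 8, 12 and 13 CG. Over the 250 bases before the start the counts were 14, 22 and 29, and 93.2% of all 32851 RefSeq windows have fewer than the Gsα window. The first and second hold the letters TATAAA on 1 of the strands, as do 12.4% of all windows, and the Gsα window does not.

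Within the Gsα group, the main RNA was Gnas-208, the long form of Gsα, at 518 and 459 TPM, or 58.2% and 55.4% of the gene. The short form lacks exon 3, a coding exon of 45 bases and 15 codons at chr2:174336747-174336791, read here from Gnas-208.
Gnas exon 3: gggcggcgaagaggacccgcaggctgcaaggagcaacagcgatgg
Gnas-206, which skips it, was at 228 and 247 TPM, higher in the library where Gnas-208 was lower. Among the full-length transcripts of the group, exon 3 was included in 67.5% and 62.2% (64.9 ± 3.77%, SD, n = 2). The second table gave 67.8% and 62.3%, so the tables differed by less than the libraries. Over all transcripts that span the exon, the share was 71.6% and 65.8%, and 77.0% and 70.9% in the second table.

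The tables disagreed on a smaller feature of the short form. Gnas-207 skips exon 3 as well and starts the next exon 3 bases earlier, at chr2:174341650-174341652, which adds 1 codon. Its share of the RNA without exon 3 was 8.45% and 11.5% in the first table and 95.7% and 93.6% in the second. The long to short balance was thus given alike by both tables, and the choice between the 2 acceptors was not.

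Nespas (ENSMUSG00000086537.7, chromosome 2, 174281237 to 174295436, minus strand) is an antisense RNA that crosses the Nesp55 promoter and is known to be made from the paternal copy. It had 40 and 33 counts, and Gnas exceeded it by 9.42 and 9.56 on the log2 scale of TPM + 0.1 (9.49 ± 0.10, SD, n = 2). Of its 3143 exonic bases, 988 (31.4%) lie across Gnas exons on the other strand. Since the use of strand in counting is not given, reads of these bases may belong to either gene. Nespas-203 led in both tables, with 66.2% and 55.0% of the gene in the first.

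A list of G protein and cAMP signalling genes was detected throughout, 16 of 16 at TPM 1 or more in both libraries. Over all protein-coding genes it was 12944 of 22028. Gnb1, the gene of a β subunit that pairs with Gα proteins, was at 466 and 467 TPM and the related Gnao1 at 443 and 445. The cAMP-dependent kinase subunits Prkacb, at 236 and 239 TPM, and Prkar1a, at 228 and 214, were among the next. Gnal, which encodes the olfactory and striatal relative of Gsα, was at 113 and 67.7 TPM. Adenylyl cyclase 5 (Adcy5), the main cyclase of striatum, was at 81.9 and 39.8 TPM, the 1 gene of the list past 2-fold between the libraries. The striatal markers named above moved the same way, and their part in this was not tested.

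Of the 4 other protein-coding neighbours of Gnas at TPM 1 in both libraries, Nelfcd was at 22.67 and 21.02 TPM, Stx16 at 18.9 and 18.7, Ctsz at 10.7 and 9.66, and Npepl1 at 6.08 and 5.54. The miRNA genes Mir296 and Mir298, which lie upstream, had 0 counts in both libraries, and Tubb1 was below TPM 1. Whether these libraries could count genes as short as miRNA genes was not tested.

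Peg3 (ENSMUSG00000002265.16, chromosome 7, 6703892 to 6730431, minus strand) encodes a zinc finger protein, and Usp29 (ENSMUSG00000051527.11, chromosome 7, 6730578 to 6967219, plus strand) an enzyme of the deubiquitinase family. Both are known to be expressed from the paternal copy, and they start back to back. Peg3 had 13465 and 13082 counts and Usp29 1972 and 1765. Peg3 exceeded Usp29 by 2.19 and 2.20 on the log2 TPM scale (2.20 ± 0.01, SD, n = 2), or 4.58-fold, and the second table gave 2.01 and 2.10. Of the 7 ratios taken, it had the smallest SD between the libraries in the gene table.

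Only 146 bases separate the annotated 5′ ends, at chr7:6730432-6730577. The interval is printed on the plus strand from the Peg3 end to the Usp29 end, with CG in capitals, from the RefSeq windows of both genes, which gave the same letters.
Peg3-Usp29 interval: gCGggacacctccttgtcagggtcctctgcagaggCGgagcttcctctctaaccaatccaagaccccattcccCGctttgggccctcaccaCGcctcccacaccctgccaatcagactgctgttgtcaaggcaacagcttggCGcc
It holds 5 CG. The letters CCAAT occur at positions 53 and 108 from the Peg3 end, on the plus strand, and 33.8% of all windows of 250 bases hold them on 1 of the strands. The interval holds neither TATAAA nor the letters GGGCGG on either strand, and TGACGTCA is not in it.

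Most RNA of both genes was assigned to transcripts annotated to start beside this interval. For Peg3 the share of TPM was 92.0% and 98.8%, with the full-length Peg3-201, coding over 4713 bases, at 73.8 and 67.8 TPM. The rest was Peg3-202, annotated for nonsense-mediated decay and starting within the gene, at 7.95 and 0.98 TPM. For Usp29 the share was 92.2% and 91.7%, led by Usp29-204 at 10.7 and 8.93 TPM.

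Of the neighbours, Zim1, another zinc finger gene of the domain known to be expressed from the maternal copy, was at 3.62 and 1.70 TPM, with 201 and 115 counts. Zfp264 was below TPM 1 with 7 and 12 counts, Zim3 had 0 and 1, and Zim2 and Zscan5b had 0 in both libraries. All 9 genes of a list of proteins that act with PEG3 or protect imprints were detected, against 12944 of 22028 protein-coding genes. Among them Trim28, which silences imprint control regions with zinc finger partners, was at 95.1 and 99.1 TPM, Zfp445 at 74.0 and 73.0, Zfp57 at 12.4 and 11.8, the maintenance methylase Dnmt1 at 18.2 and 18.2, and the insulator protein Ctcf at 27.3 and 26.2. None of the 9 was past 2-fold between the libraries, against 3.94% of all genes compared.

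Igf2 (ENSMUSG00000048583.16, chromosome 7, 142650766 to 142666816, minus strand) encodes insulin-like growth factor 2, a fetal growth factor that in brain is known from the meninges, choroid plexus and vessels. H19 (ENSMUSG00000000031.16, chromosome 7, 142575529 to 142578143, minus strand), a maternally expressed non-coding RNA, lies 72622 bases away and shares enhancers with it in other tissues. Igf2 had 3260 and 4066 counts against 21 and 33 for H19. The log2 TPM ratio was 6.94 and 6.45 (6.69 ± 0.35, SD, n = 2), about 103-fold. Both genes were higher in replicate 2, by 0.22 for Igf2 and 0.51 for H19 in log2 CPM, the latter on few counts.

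Of the cells known to make Igf2, markers of meninges and vessels were mostly detected beside it, and those of choroid plexus mostly were not. Of 10 meningeal fibroblast markers 9 were detected, and their sum was 782 TPM in replicate 1 and 901 in replicate 2, higher for 10 of 10 with a median log2 difference of 0.16. Ptgds alone gave 691 and 803 TPM of that sum, and the 9 others 91.3 and 97.8 in sum. Of 9 choroid plexus markers 3 were detected, with a sum of 36.7 and 127 TPM, of which Ttr alone gave 30.4 and 118 and the 8 others 6.29 and 8.88. By log2 CPM, 3 choroid plexus markers were higher in replicate 2 by more than 2-fold and Clic6 was lower, by a difference of -1.17. Vessel markers were all detected, the 7 mural ones at 114 and 127 TPM in sum and the 8 endothelial ones at 164 and 160. Of the endothelial sum, Slc2a1 alone gave 59.2 and 50.2 TPM and the 7 others 105 and 110. The median log2 CPM difference of the endothelial list was 0.14. The part of the cells behind all these markers in the level of Igf2 was not tested.

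Igf2 has several promoters, and 9 annotated transcripts fell into 7 groups. The group of Igf2-201 and Igf2-202, both with the full coding length of 540 bases, held 42.9% and 46.9% of TPM, and 70.0% and 72.7% of expected counts, which are not divided by length. Igf2-207, a short transcript of 376 bases, held 21.3% and 23.2% of TPM on 103 and 129 counts. The second table put 36.5% and 42.8% in another short transcript, Igf2-209 of 462 bases, which the first table listed at 0.31 and 0.58 TPM. The Igf2-201 group had the largest share of the first table's counts in both libraries, and the tables did not give the same order of groups in TPM. The order in counts also differed. In the second table Igf2-204 had 1423 counts in replicate 1, against 707 for Igf2-201 and 563 for Igf2-202. In replicate 2 these were 863, 1945 and 620.

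Most listed neighbours of Igf2 were low. The antisense gene Igf2os, which shares 98 exonic bases with it, had 19 and 12 counts, and the insulin gene Ins2 had 3 and 1. The miRNA genes Mir483, inside Igf2, and Mir675, inside H19, had 0 in both. Whether genes this short could be counted in these libraries was not tested, so a 0 does not show absence. Th, the rate-limiting enzyme of dopamine synthesis, was at 1.85 and 0.28 TPM, on 53 and 10 counts. Mrpl23, on the far side of H19, was at 3.01 and 3.66 TPM in the gene table but at 55.5 and 43.8 in the second transcript table, so its level was not settled.

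Igf2r (ENSMUSG00000023830.14, chromosome 17, 12682406 to 12769664, minus strand) encodes the receptor that carries IGF2 to lysosomes for breakdown and also sorts mannose 6-phosphate proteins. Airn (ENSMUSG00000078247.4, chromosome 17, 12741311 to 12860136, plus strand) starts in an intron of Igf2r and is known to silence it on the paternal copy, while mature neurons are known to lack Airn and use both copies of Igf2r. Igf2r had 1992 and 2028 counts, of which nearly all belonged to Igf2r-201, with 97.9% and 96.0% of the gene's TPM. Airn had 53 and 58 counts.

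The ratio of Igf2r to Airn was 1.87 and 1.90 on the log2 TPM scale (1.89 ± 0.02, SD, n = 2) but 0.66 and 0.94 in the second table, where Airn was at 11.0 and 8.54 TPM. Igf2r was above Airn in both. In expected counts not divided by length the log2 ratio was 5.18. The spans of the genes overlap by 28354 bases, but their exons share 0 bases. Airn is known to remain mostly unspliced, and reads outside the annotated exons do not enter these values. The size of the gap to Igf2r is therefore that of the annotated spliced forms.

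By TPM, RNA of the ligand exceeded RNA of its clearance receptor. Igf2r was below Igf2 by 2.91 and 3.06 on the log2 scale in replicates 1 and 2 (-2.98 ± 0.11, SD, n = 2). The gap was smaller in expected counts not divided by length, with a mean log2 ratio of -0.86. Of the IGF and insulin list, 14 of 15 genes were detected, against 12944 of 22028 protein-coding genes. None was past 2-fold between the libraries, against 3.94% of all genes compared. The signalling receptors Igf1r, at 20.5 and 22.6 TPM, and Insr, at 22.3 and 22.2, were above Igf2r, and M6pr, the small mannose 6-phosphate receptor, was at 24.4 and 25.1. Igf1, the other ligand, was at 6.58 and 7.80 TPM. The binding proteins Igfbp2, at 40.9 and 52.7 TPM, Igfbp4, at 29.2 and 48.9, Igfbp5, at 28.8 and 29.8, and Igfbp3, at 15.8 and 10.6, were all detected. Around Igf2r, Mas1 was at 10.1 and 11.6 TPM and the cation transporter gene Slc22a3 at 3.22 and 2.42. Slc22a2 and Plg were below TPM 1.

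Grb10 (ENSMUSG00000020176.17, chromosome 11, 11930508 to 12038683, minus strand) encodes an adaptor that binds the insulin and IGF1 receptors and dampens their signal. It is known to be expressed from the maternal copy in most tissues, through an upstream promoter, and from the paternal copy in neurons, through downstream promoters. It was at 27.0 and 19.7 TPM on 1683 and 1418 counts. Its 9 transcripts fell into 8 groups by 5′ end.

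The upstream transcript Grb10-201, coding over 1788 bases, held the largest share of Grb10 RNA. It was at 14.6 and 11.1 TPM, or 54.0% and 56.1% of the gene (55.1 ± 1.46%, SD, n = 2), and in counts 81.5% and 78.6%. The long downstream transcript Grb10-203, whose 5′ end lies 9.43 kb further along, was at 1.91 and 2.05 TPM, 7.09% and 10.4% of the gene, on 169 and 193 counts. Its bounds in the deposited table were wide, 0.604 to 3.89 TPM in replicate 1 and 0.925 to 3.83 in replicate 2. The library with less Grb10 in all had less of Grb10-201, while for Grb10-203 the values lay within overlapping bounds.

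A further group downstream, of the short transcripts Grb10-207 and Grb10-209, held 34.4% and 27.5% of TPM but only 5.77% and 3.97% of counts. Grb10-206, the most upstream, was at 0 in both libraries and both tables. In the second table the share of Grb10-201 was 49.4% and 53.5%, and that of Grb10-203 was 5.87% and 12.0%. The lead of the upstream promoter thus held in both tables and both libraries, while its size differed between TPM and counts. The bulk libraries do not show which cells made each form.

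**Figure D3:**
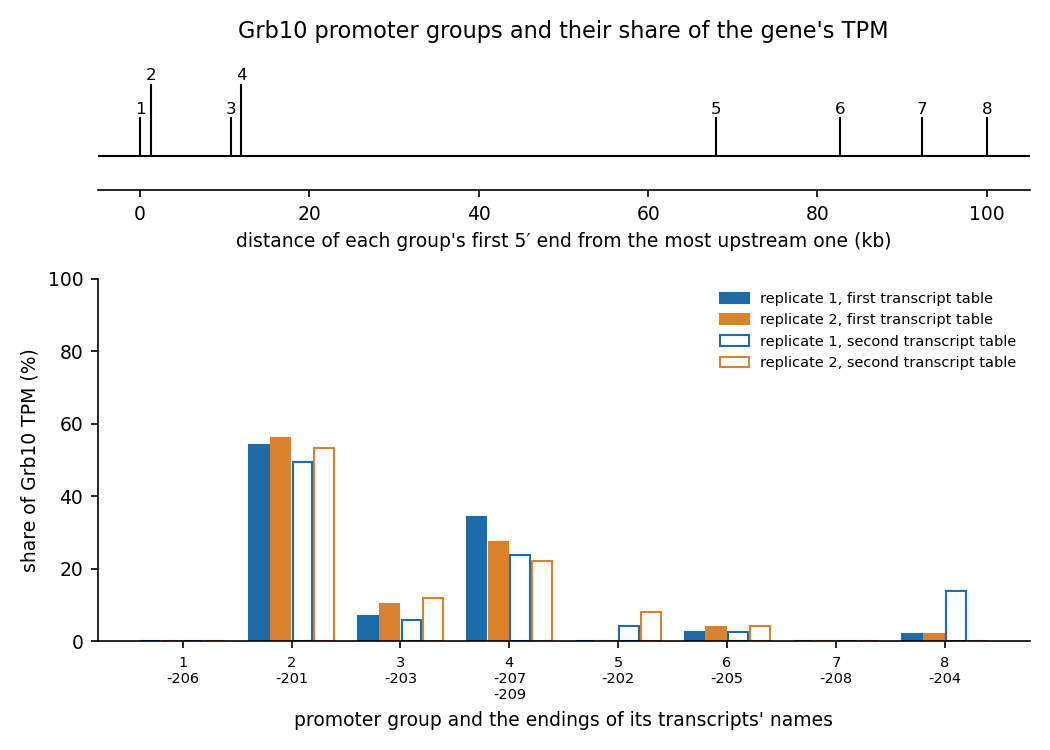
Upper panel: distance of the 8 Grb10 promoter groups from the most upstream 5′ end, in kb. Lower panel: share of Grb10 TPM (%) in each group, by library (blue, replicate 1; orange, replicate 2) and transcript table (filled, first; open, second). Group 2, Grb10-201, is highest in all 4 series, from 49.4% to 56.1%; group 3 is Grb10-203 and group 4 the short transcripts Grb10-207 and Grb10-209.

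The promoters of these 2 long transcripts differ in sequence. The 120 bases before each RefSeq start are given on the minus strand, 5′ to 3′, with CG in capitals.
Grb10 upstream, chr11:12037421-12037540: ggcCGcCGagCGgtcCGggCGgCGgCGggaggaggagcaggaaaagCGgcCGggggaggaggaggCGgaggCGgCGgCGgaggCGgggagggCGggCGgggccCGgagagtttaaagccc
Grb10 downstream, chr11:12027972-12028091: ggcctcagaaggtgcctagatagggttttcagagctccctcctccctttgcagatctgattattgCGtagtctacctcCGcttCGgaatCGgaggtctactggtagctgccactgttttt
The upstream stretch holds 17 CG and the downstream one 4. Over 250 bases the counts were 40 and 8, and 98.7% and 57.0% of all RefSeq windows have fewer.

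Next to Grb10, Ddc, which makes dopamine and serotonin from their precursors and is imprinted in heart, was at 3.75 and 2.47 TPM, below Grb10 by a log2 ratio of 2.81 and 2.95 (2.88 ± 0.10, SD, n = 2). Cobl, an actin nucleator on the other side, was at 30.4 and 35.4 TPM, and Ikzf1 at 1.97 and 1.53. The Grb10 relatives Grb14, at 13.04 and 15.98 TPM, and Grb7, at 1.21 and 0.72, and the GRB10 partners Gigyf1, at 19.8 and 18.2, Gigyf2, at 38.0 and 37.6, and Nedd4, at 145 and 141, were measured in the same libraries.

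Nnat (ENSMUSG00000067786.16, chromosome 2, 157560078 to 157562522, plus strand) encodes neuronatin, a small membrane protein of developing neurons and of endocrine cells that acts on calcium handling. It is known to be expressed from the paternal copy. It lies wholly within the span of Blcap on the other strand, with 0 exonic bases shared. Blcap was at 58.1 and 47.0 TPM, so that the log2 ratio of Nnat to Blcap was 2.12 and 1.45 (1.79 ± 0.47, SD, n = 2). Further neighbours were Ctnnbl1, at 12.7 and 11.9 TPM, and Tgm2, at 3.63 and 3.76.

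Of the 10 genes, Nnat differed most between the libraries. It had 5098 and 2751 counts, a log2 CPM difference (replicate 2 minus replicate 1) of -0.99, or 1.98-fold, just inside the 2-fold limit. Of all 18965 genes compared, 2.58% lay lower than Nnat. The second table gave -0.997, and counts scaled by library totals alone gave -1.02. The striatal markers were lower in the same library, at 597 and 167 TPM in sum, and their part in the Nnat difference was not tested.

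Nnat makes 2 main proteins, a longer one with a middle exon of 81 bases (27 codons, chr2:157561213-157561293) and a shorter one without it. The exon is printed from Nnat-202, with the first 27 bases, the part that Nnat-210 keeps, in capitals.
Nnat middle exon: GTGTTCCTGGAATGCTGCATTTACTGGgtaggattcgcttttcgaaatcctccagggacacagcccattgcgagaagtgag
In the first table, the short form Nnat-205, coding over 162 bases, was at 156 and 69.0 TPM, and the long form Nnat-202, coding over 243 bases, at 83.2 and 51.4 TPM. The exon was skipped in 63.6% and 56.4% of spanning RNA, and whole, with the ends given above, in 33.4% and 41.0%. The other 2.93% and 2.65% overlapped it with other ends. Most of that was Nnat-204, annotated with a retained intron, at 6.56 and 2.79 TPM, so a shortened exon is not shown there.

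The second table placed most Nnat RNA elsewhere. There Nnat-210, which the first table listed at 0 with upper bounds of 3.40 and 3.32 TPM, was at 301 and 172 TPM. The exon was overlapped with other ends in 80.3% and 87.3% of spanning RNA, of which Nnat-204 was at 9.41 and 4.47 TPM. It was whole in 9.11% and 12.7%, and skipped in 10.6% in replicate 1 and 1.25e-05% in replicate 2. The forms of Nnat were thus not settled by these tables, while in TPM Nnat came after Gnas in both. The whole exon took a larger share in replicate 2 than in replicate 1 in both tables.

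**Figure D4:**
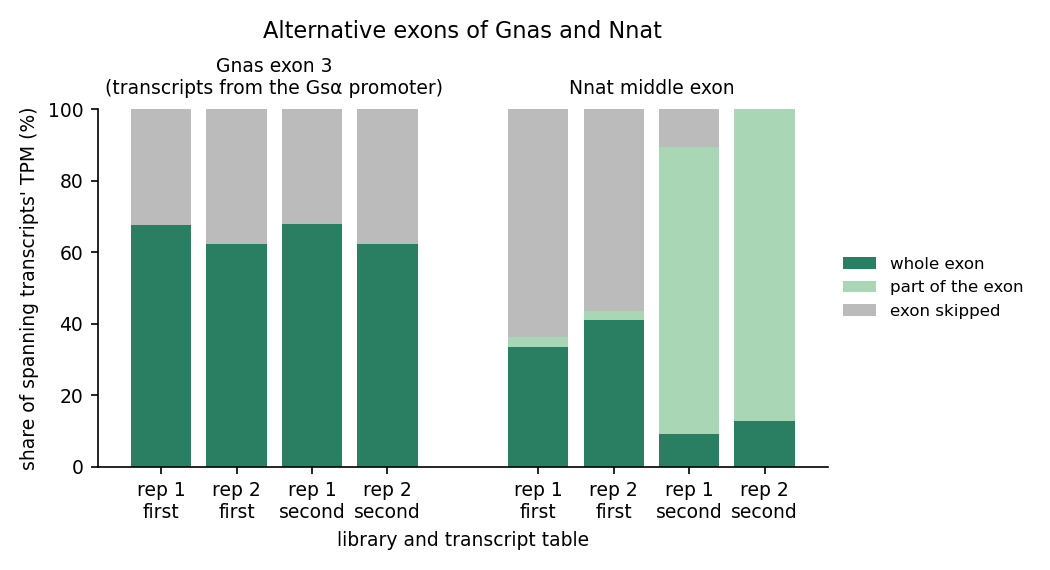
Share of the TPM of spanning transcripts (%) that hold the whole exon, part of it or none of it, for exon 3 in full-length Gnas transcripts of the Gsα group (left) and the middle exon of Nnat (right), by library and transcript table. For Nnat, part stands for any overlap with ends other than those of the whole exon. For Gnas the tables give 67.5% and 62.2%, and 67.8% and 62.3%; for Nnat the skipped share is 63.6% and 56.4% in the first table and 10.6% and 1.25e-05% in the second.

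By mean share over the libraries, the tables named the same leading transcript for 7 of the 10 genes and another for Igf2, Airn and Nnat. In replicate 2 alone, the second table had H19-203 at 29.0% above H19-202 at 16.0%, and Airn-201 at 37.4% above Airn-203 at 36.4%, so for these low genes the leader was not settled. Igf2r-201 took 96.9 ± 1.36% of its gene and Peg3-201 77.6 ± 3.98% (SD, n = 2) in the first table. The leading transcript of Usp29, Usp29-204, took 49.2 ± 0.269%.

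Between the libraries none of the 10 genes was past 2-fold, against 3.94% of all 18965 genes compared, and 0 of the 10 were lower in replicate 2 by more than 2-fold, against 2.50%. Their median log2 difference was -0.13, and that of all genes was -0.00034. Differences below 0 belonged to 7 of the 10: Nnat (-0.99), Nespas (-0.36), Grb10 (-0.35), Usp29 (-0.26), Peg3 (-0.14), Gnas (-0.11) and Igf2r (-0.07). Airn (0.03), Igf2 (0.22) and H19 (0.51) lay above 0. For Nespas and Airn, on 33 to 58 counts, the sign turned in the second table, to 0.11 and -0.12.

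**Figure D5:**
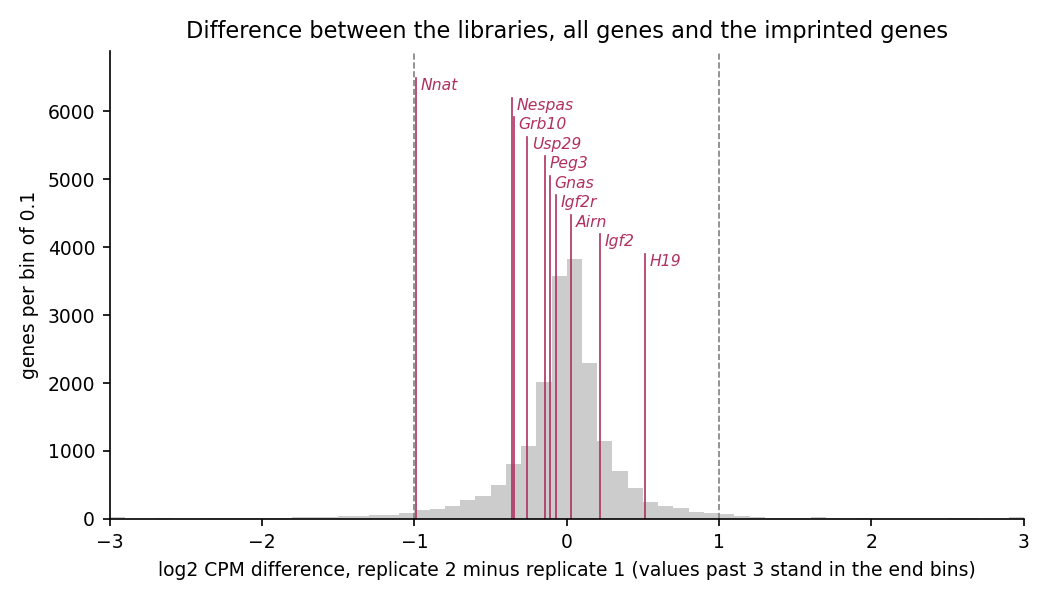
Histogram of the log2 CPM difference, replicate 2 minus replicate 1, over 18965 genes (grey, bins of 0.1), with a line at the value of each of the 10 genes and dashed lines at 2-fold. Nnat, at -0.99, stands just inside the lower 2-fold line and H19, at 0.51, is the highest of the 10.

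RefSeq windows, 250 bases before a start, existed for 8 of the 10 genes, 15 windows in all, some of which overlap. Their median number of CG was 14, from 1 to 40, and that of all 32851 windows was 6. Besides the promoters above, Igf2r had 27 in its window, Airn 2 and Nnat 12, and the 4 Igf2 windows had between 1 and 22. The letters GGGCGG, on either strand, were in 7 of the 15 windows and in 32.7% of all, CCAAT in 5 and 33.8%, TATAAA in 4 and 12.4%, and TGACGTCA in 1, that of Peg3, and 1.55%. With so few windows these counts are a description.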

How the data were processed

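Per the file headers, the authors deposited for each library a gene table, a first transcript table and a second transcript table, all on mm10 and GENCODE M21 genes. Deposited expected counts are estimated reads, not normalized, and TPM, as deposited, divides them by effective length and scales each file to a fixed total. The deposited FPKM values are scaled by length and by assigned reads, and the deposited percent gives each transcript's share of its gene. The quantifiers, the use of strand and the level of the TPM bounds: not given in the sources used here. Overlapping genes may share reads, and intronic reads are not in these values.

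Members and lists were chosen with earlier results of these data known. Named were all 10 genes, and listed neighbours at TPM 1 or more in both libraries by value, others by count; a listed gene is not reported here. Of 8 listed Peg3 neighbours 1, Peg3os, had no match. Ratios are log2 of TPM + 0.1 within a library. Differences are log2 CPM of rounded expected counts after TMM scaling, prior count 2 (edgeR 4.0.16, R 4.3.3), where 1 library or both had at least 10 counts; DESeq2 1.42.0 gave other size factors. Python 3.11.15 and pandas 2.3.3 did the rest. On simulated counts of 18965 genes for the difference between the libraries, 100% of genes changed 4-fold were found. The changed genes were drawn only from well-counted ones and scored against the 2-fold limit. The result therefore does not cover genes on few counts, such as H19, Nespas and Airn. Nor does it cover differences near the 2-fold limit, such as that of Nnat. The floors cover counting error only, and what the deposited TPM bounds cover is not given in the sources used here. With 1 group, no result was tested.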

Additional observations from a re-analysis of the deposited data

How the results depend on the processing

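No paired analysis was possible because both libraries belong to 1 group. Levels in TPM moved for all 10 genes in the second transcript table, with the order of means kept. In CPM of expected counts, which are not divided by length, the order was not kept. There Peg3, at a mean of 450, stood above Nnat at 135 and Igf2 at 124. Igf2r, at 68.1, stood above Usp29 at 63.5 and Grb10 at 52.7. The Gsα group's share of Gnas, 93.2%, became 74.8% in the second table, 87.7% with ends joined within 100 bases, 98.8% within 2000 bases, which joins it to exon 1A, and 98.0% over protein-coding transcripts. The share of Grb10-201, 55.1%, became 51.4% in the second table, 58.1% over protein-coding transcripts and 80.1% in expected counts. Gnas exon 3 inclusion over all spanning transcripts, 68.7%, became 73.9%, and skipping of the Nnat exon, 60.0%, became 5.32% in the second table, the mean of 10.6% and 1.25e-05%. In the second table the log2 ratios became 9.32 for Gnas/Nespas, 2.06 for Peg3/Usp29, 0.80 for Igf2r/Airn, -3.21 for Igf2r/Igf2 and 2.69 for Grb10/Ddc. With a pseudocount of 1 they became 8.68 for Gnas/Nespas, 2.15 for Peg3/Usp29, 5.72 for Igf2/H19, 1.64 for Igf2r/Airn and 2.57 for Grb10/Ddc, and with 0.01 they were 9.60 for Gnas/Nespas and 1.92 for Igf2r/Airn. In expected counts not divided by length they were 2.83 for Peg3/Usp29, 7.11 for Igf2/H19, 5.18 for Igf2r/Airn, -0.86 for Igf2r/Igf2, 4.02 for Grb10/Ddc and 1.19 for Nnat/Blcap. No ratio changed sign in any of these settings. With library totals 1 gene, Nnat, was past 2-fold. The differences of Nespas (0.11) and Airn (-0.12) turned sign in the second table. Apart from the settings' own construction, the cause was not tested. With 2 libraries, leaving out 1 gives the value of the other, as printed above, and depth limits H19, Nespas, Airn and the XLαs group.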

Other observations

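Other imprinted genes gave a wider range of differences between the libraries. Of 34 listed genes 28 were detected, against 27.1% of all genes. Lower in replicate 2 by more than 2-fold were 5, against 2.50% of all genes compared: Peg10 (10.1 and 4.73 TPM), Magel2 (2.18 and 0.76), Dlk1 (3.52 and 0.55), Rtl1 (27 and 5 counts) and Calcr (19 and 1 counts). None was higher by more than 2-fold, and the list's median log2 difference was -0.10. The necdin gene Ndn was at 84.7 and 62.2 TPM and Zdbf2 at 12.4 and 7.88, whereas Mest, at 53.7 and 52.1, Ube3a, at 54.5 and 53.9, and Peg13, at 55.9 and 57.4, were near equal. The part of the striatal markers, lower in the same library, was not tested.

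The imprinted Kcnq1 domain, beside Igf2 on chromosome 7, had 6 of 12 listed genes at TPM 1 in both libraries, against 27.1% of all genes. Its antisense RNA Kcnq1ot1, known to silence the domain on the paternal copy, had 4842 and 5466 counts, but 2.74 and 2.90 TPM. The cyclin-dependent kinase inhibitor gene Cdkn1c was at 6.81 and 6.45 TPM, and Cd81, a tetraspanin gene, at 185 and 167. Kcnq1 itself, the potassium channel gene, was below TPM 1, and Phlda2, a placental growth regulator, had 0 counts in both.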
